A study of Homo sapiens with 6 samples.

Results

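The genes described here encode the CDK inhibitors, the 2 small protein families that bind and block the cyclin-dependent kinases (CDKs) of the cell cycle. They were chosen by gene symbol. The rule names 7 genes, CDKN1A, CDKN1B and CDKN1C of the CIP/KIP family and CDKN2A, CDKN2B, CDKN2C and CDKN2D of the INK4 family. Values were found for 5 of them among the 26286 genes with counts in the series. CDKN2A and CDKN2B are not analysed here. RNA sequencing read counts per gene came from HT-1080, a human fibrosarcoma cell line with an activating NRAS mutation, which is catalogued as having lost CDKN2A. Cells were treated for 48 h with the vehicle DMSO, with 2 µM palbociclib, which inhibits CDK4 and CDK6, or with 500 nM pimasertib, which inhibits the kinases MEK1 and MEK2 upstream of ERK. Each of the 3 groups had 2 libraries, and all came from the same line, so the results describe 1 line at 1 dose and time per drug. The labels give replicate numbers and no word on whether the cultures were independent, so the p-values speak only of the spread among these libraries, and part of that may be technical.

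INK4 proteins bind CDK4 and CDK6 alone, through ankyrin repeats, and keep D-type cyclins from assembling with them. CIP/KIP proteins bind whole cyclin-CDK complexes, block CDK2 with cyclin E or cyclin A, and can also help cyclin D bind CDK4 and CDK6. Palbociclib acts on the same kinases as the INK4 proteins. CDKN1A rises in many forms of cell stress, CDKN1B rises in many resting cells, and CDKN2C and CDKN2D vary over the cell cycle and are known E2F target genes.

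The 250 bases before an annotated start of CDKN2C, CDKN2D and CDKN1B, the genes with calls against DMSO, are shown, since the sequences show which of the searched letters each promoter holds. They are from RefSeq on GRCh38.p14, where 6 of the 7 genes were matched, all but CDKN1C, whereas the counts were made on GRCh37. Capitals mark the letters TTCCCGC on either strand, a form of the binding motif of E2F factors. The other forms searched on both strands were TTGGCGC as the second form, TTGCCGC as the next and TTCGCGC as the last, 4 versions in all.
CDKN2C, second of 3 starts, chr1:50968456-50968705, plus strand: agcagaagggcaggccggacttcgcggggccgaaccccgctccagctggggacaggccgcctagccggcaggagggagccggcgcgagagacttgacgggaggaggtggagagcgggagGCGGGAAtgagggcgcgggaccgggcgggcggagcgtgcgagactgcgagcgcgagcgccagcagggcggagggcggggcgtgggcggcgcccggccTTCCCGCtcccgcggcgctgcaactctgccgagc
CDKN2D, chr19:10568980-10569229, minus strand: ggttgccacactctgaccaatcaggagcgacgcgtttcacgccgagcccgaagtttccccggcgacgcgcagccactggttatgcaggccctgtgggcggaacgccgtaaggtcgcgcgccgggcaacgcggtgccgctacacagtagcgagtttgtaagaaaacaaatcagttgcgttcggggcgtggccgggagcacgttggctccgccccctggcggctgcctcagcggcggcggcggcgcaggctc
CDKN1B, chr12:12717118-12717367, plus strand: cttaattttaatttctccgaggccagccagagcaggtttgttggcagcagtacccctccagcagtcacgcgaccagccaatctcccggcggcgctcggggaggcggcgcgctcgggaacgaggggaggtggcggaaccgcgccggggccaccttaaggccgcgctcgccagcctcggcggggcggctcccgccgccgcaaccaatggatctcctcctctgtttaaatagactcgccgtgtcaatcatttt
The CDKN2C window held the E2F letters at 2 places, which begin 131 and 34 bases before the start. None of the 4 versions was in the CDKN2D or CDKN1B window, nor in those of the other CDKN2C starts or of CDKN1A. Of the 9 windows of the members, only the CDKN2C window shown held any of them. Of 35116 windows of this length, 10.9% held at least 1 of the 4 versions on either strand. The CHR motif TTTGAA of cell cycle genes was in none of the members' windows and in 13.3% of all windows, and the SP1 box GGGCGG was in the 3 windows shown and in 42.6% of all. The forkhead motif GTAAACA was in none of the members' windows and in 2.98% of all. The E-box CACGTG was in the first and the third of the CDKN2C windows and in 6.34% of all. The read counts do not tell which start of CDKN2C was used, and a match of letters does not show binding.

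Library totals ranged from 13607490 to 17500655 counts. The 13 mitochondrially encoded protein genes took 3.21% to 8.76% of counts, more in replicate 2 than in replicate 1 of each group. Levels are CPM, the counts relative to the TMM-scaled library total, given as mean ± SD with n = 2, and a count of 3 was worth 0.168 to 0.220 CPM. Fold changes are log2 with their SE from the edgeR quasi-likelihood test, with p-values adjusted over all 14839 tested genes by Benjamini-Hochberg and a threshold of 0.05. All 5 members passed the filter on low counts, and no other gene in the tables overlapped any of them. The 10 mesenchymal markers summed to 2338 to 5572 FPKM (reads relative to gene length and library total, as the authors deposited them), against 0.893 to 8.04 for epithelial, 1.21 to 2.07 for leukocyte and 33.5 to 90.7 for endothelial markers. Values were found for 9 of 10 epithelial, 10 of 10 leukocyte and 8 of 10 endothelial markers. The mesenchymal sum was highest in pimasertib, where 4 of the 10 markers rose and 1 fell by edgeR. Of 9 tested RNA stress genes, 2 rose and 1 fell there. Over all tested genes 11.1% were called higher and 11.7% lower in pimasertib. The part of these marker and stress genes in the results was not tested. The highest epithelial sum was in palbociclib replicate 2, where KRT19, a keratin, had 164 counts against 0 to 7 in the other libraries. The part of that library's KRT19 signal in the results was not tested, and results that change without that library are given below. In bulk RNA, fewer cells that express a gene and less RNA per cell cannot be told apart.

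**Figure D1:**
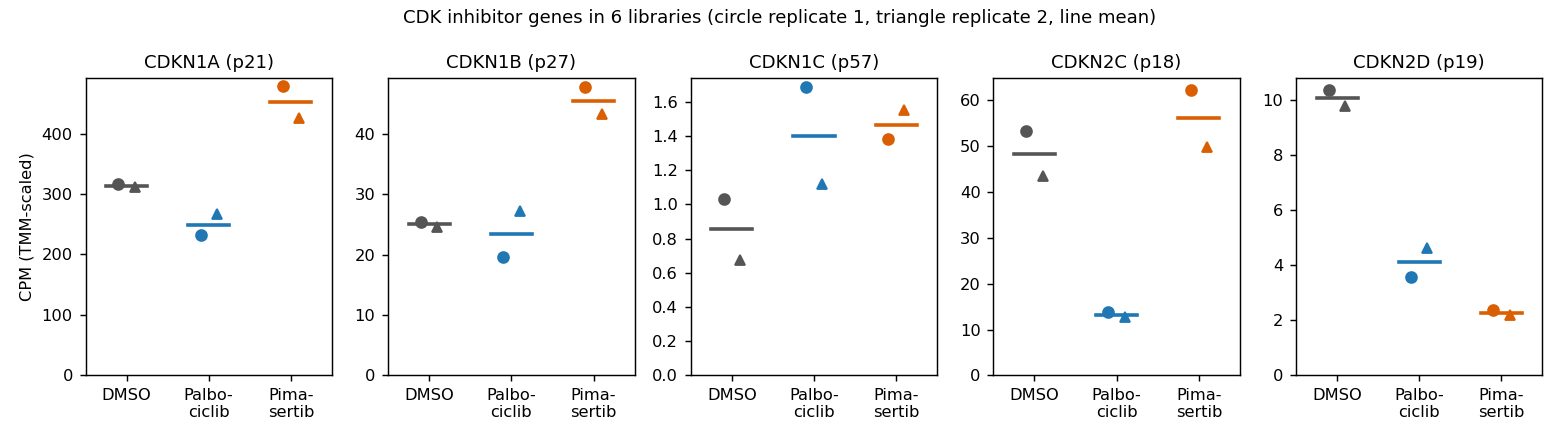
Levels of the 5 CDK inhibitor genes in CPM (linear axes that start at 0, a separate scale for each gene) in the 6 libraries, with circles for replicate 1, triangles for replicate 2 and lines for group means. CDKN2C was low in palbociclib alone, CDKN2D was low in both drugs, and CDKN1A and CDKN1B were highest in pimasertib.

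CDKN2C encodes p18, an INK4 inhibitor of CDK4 and CDK6 (ENSG00000123080, GRCh37 chromosome 1, positions 51426417 to 51440305, plus strand). It was at 53.2 and 43.4 CPM in the DMSO libraries, 13.8 and 12.7 CPM in palbociclib, and 62.2 and 49.9 CPM in pimasertib. Both palbociclib libraries lay below all of the others, while pimasertib and DMSO overlapped. Mean levels were 48.3 ± 6.89 CPM in DMSO, 13.3 ± 0.760 in palbociclib and 56.1 ± 8.74 in pimasertib. CDKN2C fell in palbociclib to 27.4% of the DMSO level, with a log2 fold change of -1.87 (SE 0.22; adjusted p = 0.0019 by edgeR). In pimasertib the log2 fold change from DMSO was 0.21 (SE 0.21; 95% interval -0.25 to 0.68; edgeR adjusted p = 0.489). Compared directly, CDKN2C was 4.23-fold higher in pimasertib than in palbociclib, with a log2 difference of 2.08 (SE 0.22; edgeR adjusted p = 2.82e-04). The decrease in palbociclib and the difference between the drugs passed in each fit that left out 1 library, with edgeR adjusted p of at most 0.00824 for the first and 0.00696 for the second. The authors' deposited table gives an adjusted p of 7.55e-08 for palbociclib and 0.608 for pimasertib.

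CDKN2D encodes p19, the other INK4 inhibitor measured here (ENSG00000129355, GRCh37 chromosome 19, positions 10677138 to 10679735, minus strand). Its levels were 10.4 and 9.81 CPM with DMSO, 3.59 and 4.65 CPM with palbociclib and 2.36 and 2.20 CPM with pimasertib. The 3 groups did not overlap, with DMSO highest and pimasertib lowest. CDKN2D fell in pimasertib to 22.6% of the DMSO level, with a log2 fold change of -2.14 (SE 0.33; edgeR adjusted p = 0.00141), and this passed in each fit without 1 library. In palbociclib the level was 40.8% of that in DMSO, with a log2 fold change of -1.29 (SE 0.31; 95% interval -1.98 to -0.60). That value missed the threshold, with an edgeR adjusted p of 0.0511, and passed with limma-voom (adjusted p = 0.0478) and with no filter on low counts (edgeR adjusted p = 0.0273). Between pimasertib and palbociclib the log2 difference was -0.85 (SE 0.33; 95% interval -1.58 to -0.13; edgeR adjusted p = 0.137). The authors' deposited table gives an adjusted p of 0.0752 in palbociclib and 3e-05 in pimasertib.

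By mean level the 2 INK4 genes ranked the groups differently. CDKN2C was lowest in palbociclib, and CDKN2D was lowest in pimasertib. For CDKN2D the difference between the drugs did not pass (edgeR adjusted p = 0.137). Per length, CDKN2C exceeded CDKN2D in every library. The ratio of their FPKM was 2.51 and 2.17 with DMSO, 1.88 and 1.34 with palbociclib and 12.9 and 11.1 with pimasertib. The summed FPKM of the pair was 25.2 and 21.5 with DMSO, 7.29 and 7.80 with palbociclib and 23.6 and 18.5 with pimasertib. The sum was low in palbociclib. CDKN2C made up most of it in every library, and its part was largest in pimasertib.

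CDKN1B encodes p27, a CIP/KIP inhibitor of cyclin E-CDK2 whose protein is removed through the ubiquitin ligase subunit SKP2 (ENSG00000111276, GRCh37 chromosome 12, positions 12867992 to 12875305, plus strand). Its mRNA was at 25.5 and 24.7 CPM with DMSO, 19.6 and 27.3 CPM with palbociclib and 47.8 and 43.3 CPM with pimasertib. Both pimasertib libraries lay above all of the others, and the palbociclib libraries lay on either side of DMSO. CDKN1B rose 1.82-fold in pimasertib, with a log2 fold change of 0.86 (SE 0.22; edgeR adjusted p = 0.0191). In palbociclib the log2 fold change was -0.09 (SE 0.22; 95% interval -0.58 to 0.40; edgeR adjusted p = 0.874). The direct log2 difference between pimasertib and palbociclib was 0.96 (SE 0.22; edgeR adjusted p = 0.0221). The call against DMSO did not pass without DMSO replicate 1 (edgeR adjusted p = 0.0612), pimasertib replicate 1 (0.107) or pimasertib replicate 2 (0.0792). The direct call did not pass without palbociclib replicate 1 (0.199), pimasertib replicate 1 (0.136) or pimasertib replicate 2 (0.106). Over all alternatives the log2 fold change stayed between 0.78 and 0.94 against DMSO and between 0.73 and 1.23 between the drugs. The authors' deposited table gives an adjusted p of 0.00877 for CDKN1B in pimasertib.

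CDKN1A encodes p21, the CIP/KIP inhibitor best known for its part in the DNA damage checkpoint (ENSG00000124762, GRCh37 chromosome 6, positions 36644305 to 36655116, plus strand). It was at 316 and 311 CPM with DMSO, 231 and 268 CPM with palbociclib and 479 and 426 CPM with pimasertib. The groups did not overlap, with palbociclib lowest and pimasertib highest. Neither drug passed the test against DMSO. The log2 fold change was -0.33 in palbociclib (SE 0.22; 95% interval -0.82 to 0.15; edgeR adjusted p = 0.475) and 0.53 in pimasertib (SE 0.22; 95% interval 0.04 to 1.01; edgeR adjusted p = 0.109). With DESeq2 the pimasertib value passed (adjusted p = 0.0473), while in the authors' deposited table it is at 0.071. The direct comparison passed, with CDKN1A 1.81-fold higher in pimasertib than in palbociclib (log2 difference 0.86, SE 0.22; edgeR adjusted p = 0.0362). This call did not pass without palbociclib replicate 1 (edgeR adjusted p = 0.295), palbociclib replicate 2 (0.0685), pimasertib replicate 1 (0.19) or pimasertib replicate 2 (0.142).

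CDKN1C encodes p57, the CIP/KIP inhibitor of an imprinted gene (ENSG00000129757, GRCh37 chromosome 11, positions 2904443 to 2907111, minus strand). It was scarcely detected, with 17 and 10 counts with DMSO, 23 and 20 with palbociclib and 24 and 24 with pimasertib. These were 1.03 and 0.676 CPM with DMSO, 1.69 and 1.12 with palbociclib and 1.38 and 1.55 with pimasertib. Both drugs lay above DMSO, but the test did not separate them, with log2 fold changes of 0.70 (SE 0.65; edgeR adjusted p = 0.635) and 0.77 (SE 0.65; edgeR adjusted p = 0.422). From the summed counts alone, the ratio to DMSO was 1.58 in palbociclib, with an exact 95% interval of 0.954 to 2.66, and 1.69 in pimasertib, with 1.04 to 2.82. These intervals cover counting error only, since they pool the counts of each group and leave out the spread between libraries. Copies of a read made by PCR are not independent molecules, so the intervals may be too narrow even for that error. The fitted 95% intervals, which also hold the spread between libraries, were -0.75 to 2.15 in palbociclib and -0.67 to 2.21 in pimasertib on the log2 scale, so changes of the size seen in CDKN1B lay within both.

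**Figure D2:**
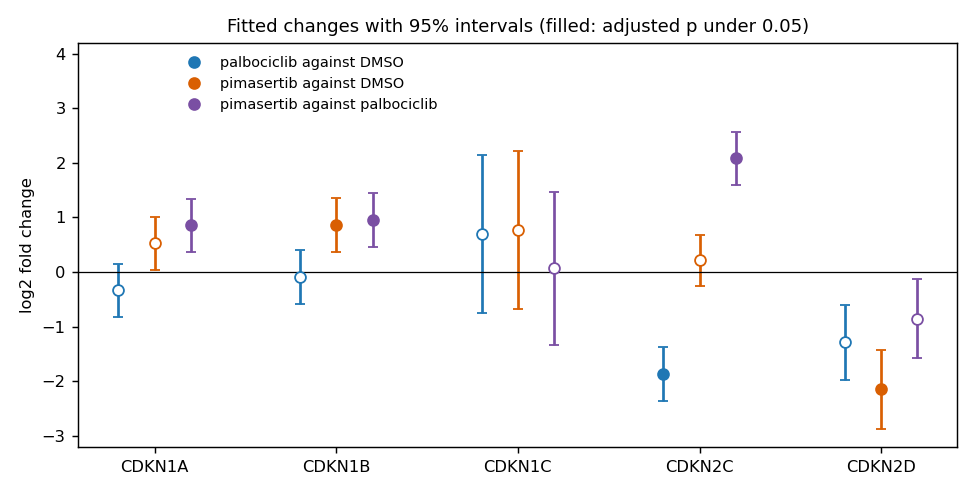
Log2 fold changes of the 5 genes in 3 comparisons (points), with 95% intervals from the edgeR fit (bars). Filled points have an adjusted p under 0.05: CDKN2C in palbociclib, CDKN1B and CDKN2D in pimasertib, and CDKN1A, CDKN1B and CDKN2C between the drugs.

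By count, 1 of 5 members passed in palbociclib, as a decrease, where 3.54% of all tested genes passed (1.11% higher and 2.44% lower). In pimasertib 2 of 5 passed, 1 higher and 1 lower, where 22.8% of all genes did (11.1% higher and 11.7% lower). Between the drugs 3 of 5 passed, all higher in pimasertib, where 9.39% of all genes passed (5.07% higher and 4.31% lower). The median log2 fold change of the members was -0.33 in palbociclib, 0.53 in pimasertib and 0.86 between the drugs, each the value of CDKN1A. Over all tested genes the medians were near 0 (0.0049, 0.0047 and 0.016), where TMM scaling tends to place them. The comparisons share libraries, so these counts are not independent of each other. A fit without 1 library leaves a single library in that group, and calls of CDKN1A and CDKN1B were lost in some of these fits, as given above. In most of those fits fewer of all genes passed too, so the losses are not particular to the members. In pimasertib the log2 fold changes stayed at 0.78 to 0.94 for CDKN1B and -2.20 to -2.08 for CDKN2D. Between the drugs they stayed at 0.75 to 0.98 for CDKN1A, 0.73 to 1.23 for CDKN1B and 1.90 to 2.23 for CDKN2C.

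The mRNA of p21 dominated the family per length. CDKN1A made up 79.7% and 81.4% of the summed FPKM of the 5 genes with DMSO, 86.9% and 86.5% with palbociclib, and 83.5% and 84.0% with pimasertib. In DMSO the order of the levels was CDKN1A at 136 ± 1.60 FPKM, CDKN2C at 16.3 ± 2.33, CDKN1B at 9.27 ± 0.202, CDKN2D at 6.98 ± 0.285 and CDKN1C at 0.409 ± 0.121, and no 2 neighbours in this order overlapped. In palbociclib CDKN1B, at 8.94 ± 2.20 FPKM, lay above CDKN2C at 4.61 ± 0.206. In pimasertib CDKN2C, at 19.4 ± 3.48 FPKM, and CDKN1B, at 17.2 ± 1.63, overlapped, and CDKN2D, at 1.61 FPKM, was well below both. The CDKN1C share stayed under that of the other members in all 6 libraries.

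Of the kinases that these proteins bind, CDK2 fell in both drugs. CDK4 and CDK6, the kinases bound by INK4 proteins, did not pass in either drug. CDK4 was at 183 and 144 CPM with DMSO, 145 and 120 with palbociclib and 125 and 101 with pimasertib, with log2 fold changes of -0.31 (edgeR adjusted p = 0.541) and -0.53 (edgeR adjusted p = 0.125). CDK6 was at 298 and 220 CPM with DMSO, 357 and 243 with palbociclib and 312 and 199 with pimasertib, with groups that overlapped. CDK2, the kinase of S phase entry that CIP/KIP proteins block, was at 37.0 and 34.2 CPM with DMSO, 14.0 and 16.4 with palbociclib and 16.9 and 13.1 with pimasertib. Both drugs lay below DMSO, with log2 fold changes of -1.22 (SE 0.23; edgeR adjusted p = 0.0143) and -1.24 (SE 0.22; edgeR adjusted p = 0.00369). Without pimasertib replicate 2 the second value did not pass (edgeR adjusted p = 0.0558). Between the drugs CDK2 differed by -0.02 (95% interval -0.52 to 0.48).

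As ratios of FPKM, the 2 INK4 mRNAs together were 0.225 and 0.248 of CDK4 plus CDK6 with DMSO, 0.0724 and 0.0973 with palbociclib, and 0.265 and 0.284 with pimasertib. The 3 CIP/KIP mRNAs together were 10.5 and 11.2 times CDK2 with DMSO, 20.5 and 20.4 times with palbociclib, and 35.5 and 40.7 times with pimasertib. The INK4 ratio was lowest in palbociclib, and the CIP/KIP ratio was above DMSO in both drugs. In palbociclib the summed CIP/KIP level itself was not above DMSO, at 111 and 132 FPKM against 147 and 145, so the higher ratio there went with the lower CDK2. These ratios describe mRNA and carry no test.

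**Figure D3:**
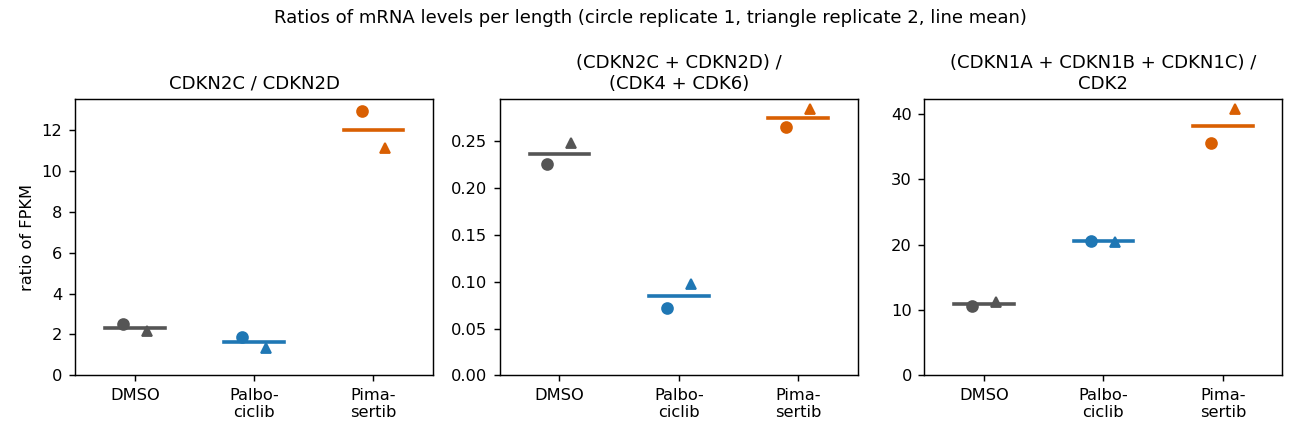
Ratios of FPKM in the 6 libraries (linear axes from 0), with circles for replicate 1, triangles for replicate 2 and lines for means. CDKN2C over CDKN2D was above 11 only in pimasertib, the INK4 sum over CDK4 plus CDK6 was at most 0.0973 in palbociclib, and the CIP/KIP sum over CDK2 was over 20.4 in both drugs.

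Of 13 tested genes for kinases and cyclins bound by the inhibitors, 5 passed in palbociclib and 7 in pimasertib by edgeR, all of them lower (medians -0.31 and -0.90), where 2.44% and 11.7% of all genes were called lower. In palbociclib these included CCNA2, cyclin A2 (-2.41), CCNE2, cyclin E2 (-1.74), CDK1, the mitotic kinase (-1.64), and CCNB1, cyclin B1 (-1.44). CCNE2 did not pass without DMSO replicate 1 (edgeR adjusted p = 0.0819) or palbociclib replicate 2 (0.0844). In pimasertib the largest decrease was that of CCND1, cyclin D1, which went from 1469 and 901 CPM in DMSO to 215 and 162 CPM (-2.65; edgeR adjusted p = 5.74e-04). CCNE2 (-1.73) and CCNB1 (-1.26) fell there too, and without pimasertib replicate 2 they were at -1.62 and -1.17 and missed the threshold (edgeR adjusted p = 0.0664 and 0.0514). CCND3, cyclin D3, was lower in pimasertib as well (-1.15; edgeR adjusted p = 0.00387). CCNA2 (-0.91; edgeR adjusted p = 0.022) and CDK1 (-0.90; edgeR adjusted p = 0.0186) also fell in pimasertib. Without pimasertib replicate 2 they were at -0.67 and -0.65 (edgeR adjusted p = 0.197 and 0.166), and CCNA2 also missed without DMSO replicate 1 (-0.80; edgeR adjusted p = 0.0712). With palbociclib CCND1 was at 2472 and 1564 CPM, above DMSO but without a call against it. Between the drugs CCND1 was lower in pimasertib by 3.42 on the log2 scale (edgeR adjusted p = 2.52e-04), and CCNA2 was higher there (1.49). Without pimasertib replicate 1 the CCNA2 difference was 1.21 and missed the threshold (edgeR adjusted p = 0.0508).

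Of the genes for degradation of the CIP/KIP proteins, SKP2, DTL, CDC20 and PCNA fell in both drugs. SKP2, which recognises p27 for the SCF ubiquitin ligase, was at 47.4 and 42.7 CPM with DMSO, 17.2 and 17.8 with palbociclib and 17.1 and 16.9 with pimasertib. All 4 treated libraries lay far below DMSO and close to each other. The log2 fold changes were -1.36 (SE 0.20; edgeR adjusted p = 0.00445) and -1.41 (SE 0.20; edgeR adjusted p = 9.96e-04), and the drugs differed by -0.04 (95% interval -0.49 to 0.40). Of 17 tested genes of this list, 4 passed in palbociclib, all lower, and 6 fell and 1 rose in pimasertib (medians -0.21 and -0.48), where 2.44% of all genes were called lower in palbociclib, and 11.7% lower and 11.1% higher in pimasertib. DTL, which recognises p21 for the CUL4 ligase, fell by 2.25 and 2.01 on the log2 scale, and so did CDC20 (-1.42 and -1.75), an activator of the anaphase-promoting complex. PCNA, on which DTL finds its substrates, fell in both drugs as well (-1.96 and -1.21), and in pimasertib it missed the threshold without pimasertib replicate 2 (-0.90; edgeR adjusted p = 0.0955). CKS1B, the partner of SKP2 in binding p27, fell in pimasertib (-1.62; edgeR adjusted p = 0.00113). The gene that rose was CUL4B (1.04; edgeR adjusted p = 0.0157), which did not pass without pimasertib replicate 1 (0.135).

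Of 25 tested regulators of CDKN genes, 5 passed in palbociclib, all lower, and 6 fell and 4 rose in pimasertib (medians -0.13 and -0.22), beside the same shares of all genes (2.44% lower in palbociclib, and 11.7% lower and 11.1% higher in pimasertib). EZH2, the enzyme of Polycomb repression, fell in both drugs, from 45.1 and 49.6 CPM in DMSO to 8.73 and 10.9 in palbociclib and 21.7 and 19.5 in pimasertib, with log2 fold changes of -2.27 and -1.20. The second did not pass without pimasertib replicate 2 (edgeR adjusted p = 0.0503). E2F1, the S phase transcription factor, fell by 1.72 in palbociclib and by 2.65 in pimasertib on the log2 scale, and FOXM1, a factor of mitotic genes, by 1.85 and 1.97. CBX2, a Polycomb reader, fell in palbociclib (-1.46), and ID1, an inhibitor of helix-loop-helix factors, fell in pimasertib (-1.27; edgeR adjusted p = 0.116 without pimasertib replicate 2).

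Of the 3 forkhead genes FOXO1, FOXO3 and FOXO4 in this list, FOXO3 and FOXO4 rose in pimasertib. FOXO3 was at 69.6 and 57.8 CPM with DMSO, 73.5 and 61.8 with palbociclib and 128 and 108 with pimasertib (log2 fold change 0.89; edgeR adjusted p = 0.0148). FOXO4 was at 4.31 and 6.83 CPM with DMSO, 8.87 and 9.58 with palbociclib and 16.7 and 13.1 with pimasertib (1.42; edgeR adjusted p = 0.00786). FOXO1 had a mean of 11.3 CPM with DMSO, and was at 17.5 and 12.5 CPM with palbociclib and 11.9 and 10.1 CPM with pimasertib, with a log2 fold change of -0.03 in pimasertib (95% interval -0.61 to 0.55; edgeR adjusted p = 0.941), whose sign changed under several alternatives. Whether these genes bear on CDKN1B was not tested. ETS2 also rose (0.96; edgeR adjusted p = 0.00798). Without 1 library these 3 calls were not stable. FOXO3 missed without DMSO replicate 2 (edgeR adjusted p = 0.0628), pimasertib replicate 1 (0.0995) or pimasertib replicate 2 (0.0503). FOXO4 missed without DMSO replicate 1 (0.0537) or pimasertib replicate 1 (0.0724), and ETS2 without pimasertib replicate 1 (0.0625).

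Between the drugs, ETS2, an effector of ERK signalling, differed most among these regulators. It was at 61.7 and 59.0 CPM with DMSO, 30.6 and 36.3 CPM with palbociclib and 126 and 109 CPM with pimasertib. Against DMSO it was also called lower in palbociclib, close to the threshold (-0.85, SE 0.20; edgeR adjusted p = 0.0491). The 3 groups did not overlap, with a log2 difference of 1.81 between the drugs (SE 0.21; edgeR adjusted p = 4.42e-04). EZH2 (1.06) and FOXO3 (0.80) were higher in pimasertib than in palbociclib, and E2F1 was lower (-0.92). These 3 calls missed without palbociclib replicate 1 (edgeR adjusted p = 0.0926, 0.0834 and 0.162) or either pimasertib replicate (0.0676 to 0.274), and that of FOXO3 also without palbociclib replicate 2 (0.147).

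Of 21 tested other brakes of proliferation, 3 passed in palbociclib, all lower, and 5 fell and 5 rose in pimasertib (medians -0.22 and 0.07), again beside 2.44% of all genes lower in palbociclib, and 11.7% lower and 11.1% higher in pimasertib. CDKN3, which encodes a phosphatase that acts on CDKs and is no member of either inhibitor family, fell in both (-1.89 and -1.28; the second with an edgeR adjusted p of 0.0694 without pimasertib replicate 2). RBL1, the pocket protein p107, fell by 1.82 and 1.32, and PKMYT1, an inhibitory kinase of CDK1, by 2.18 and 1.52 on the log2 scale. Those that rose in pimasertib included GAS1 (1.85), CCNG2, cyclin G2 (1.56), GADD45B (1.18) and TOB1, an antiproliferative protein (1.16). GAS1 and GADD45B missed without pimasertib replicate 1 (edgeR adjusted p = 0.0616 and 0.072) or pimasertib replicate 2 (0.0899 and 0.0833). Between the drugs, GAS1 (1.67), WEE1, another inhibitory kinase of CDK1 (1.38), and GADD45B (1.24) were higher in pimasertib and CDKN2AIPNL was lower (-1.04). WEE1 missed without pimasertib replicate 2 (edgeR adjusted p = 0.085), and the other calls missed without palbociclib replicate 1 (edgeR adjusted p = 0.146 for GAS1, 0.111 for GADD45B and 0.257 for CDKN2AIPNL) and without either pimasertib replicate (0.109 to 0.267).

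**Figure D4:**
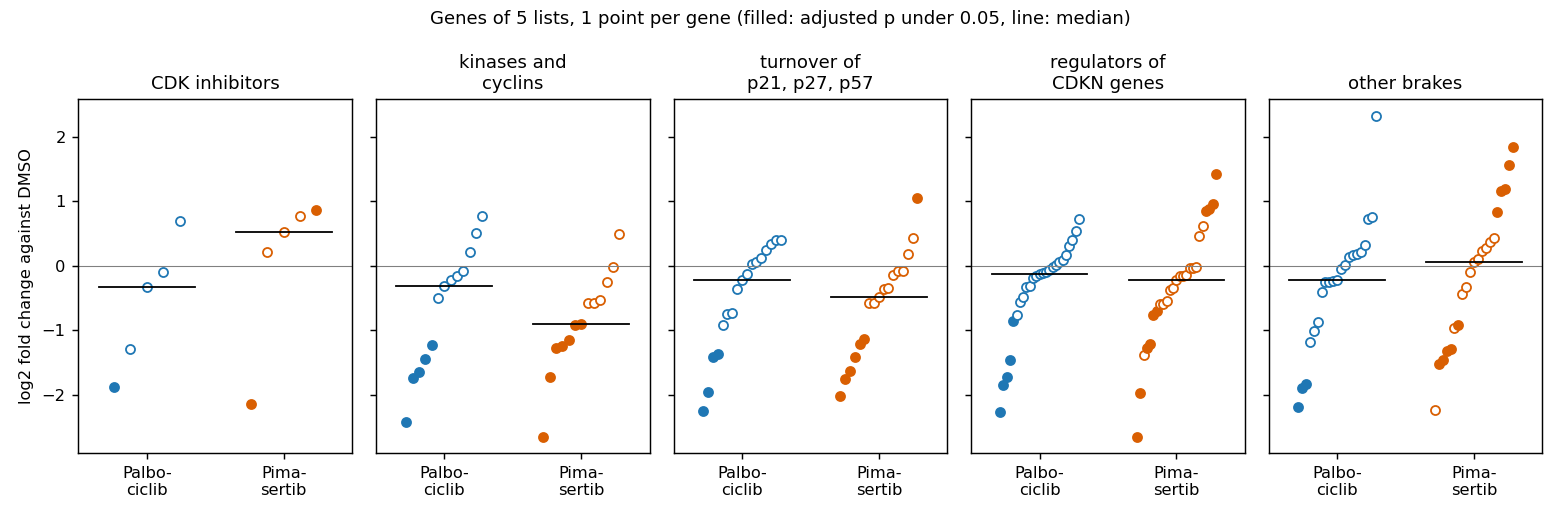
Log2 fold changes against DMSO of the tested genes in 5 lists, 1 point per gene, blue for palbociclib and orange for pimasertib. Filled points have an edgeR adjusted p under 0.05 and black lines are medians. In palbociclib all filled points lie below 0, while in pimasertib they lie on both sides in 4 lists and below 0 in the kinases and cyclins.

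Around CDKN2A and CDKN2B on 9p21, 13 of the 16 listed genes had values. MTAP, the neighbour that encodes an enzyme of methionine salvage (GRCh37 chromosome 9, positions 21802542 to 21932738), had 3 and 1 counts with DMSO, 0 and 15 with palbociclib and 0 and 3 with pimasertib. Palbociclib replicate 2, the library with the KRT19 counts, held most of them. KLHL9, a ubiquitin ligase adaptor on the far side of MTAP from CDKN2A, had 1317 and 1039 counts with DMSO, 1534 and 1609 with palbociclib and 1787 and 1265 with pimasertib. Per length, MTAP did not exceed 0.140 FPKM, against 12.1 to 19.7 FPKM for KLHL9. CDKN2B-AS1, the noncoding antisense RNA of the locus also called ANRIL (positions 21994777 to 22121096), had 20 and 54 counts with DMSO, 20 and 74 with palbociclib and 39 and 55 with pimasertib. It was higher in replicate 2 of each group, as was the mitochondrial share, and the link between them was not tested. The groups overlapped, with log2 fold changes of 0.23 (SE 0.64; edgeR adjusted p = 0.896) and 0.26 (SE 0.63; edgeR adjusted p = 0.799). Whether reads were counted by strand is unknown, so reads of this RNA and of genes it overlaps cannot be told apart. FOCAD, on the side of KLHL9, was at 9.28 to 16.0 FPKM. Of the 11 tested genes of this region, ELAVL2, a neuronal RNA-binding protein gene, passed between the drugs, 1 of 11 where 9.39% of all genes passed. It had 11 and 23 counts in the DMSO libraries, 2 and 3 in those of palbociclib and 57 and 39 in those of pimasertib (log2 difference 4.13; edgeR adjusted p = 0.0086), and it missed without pimasertib replicate 1 (0.0924) or pimasertib replicate 2 (0.0619).

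**Figure D5:**
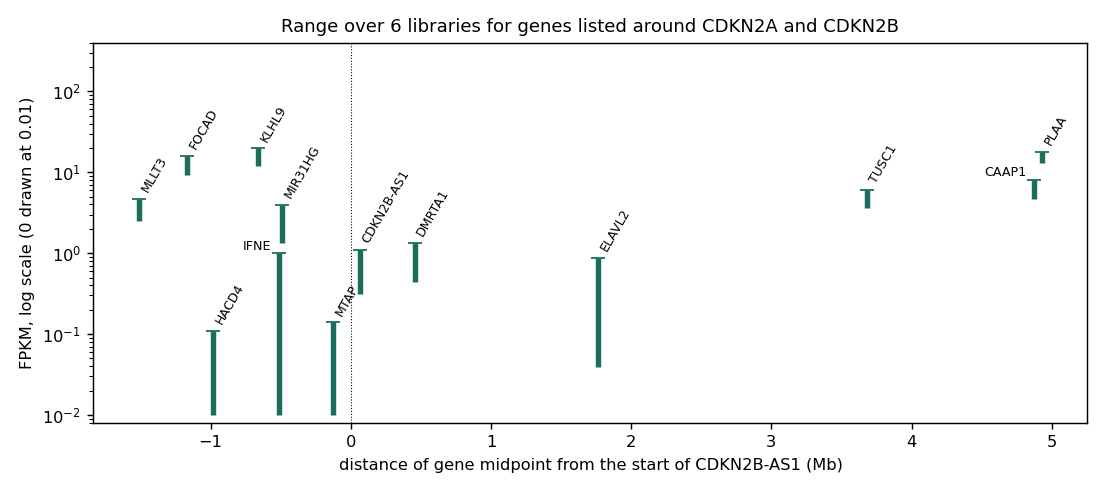
FPKM (log axis, 0 drawn at 0.01) of the 13 listed genes around CDKN2A and CDKN2B that had values, against the distance of the gene's midpoint from the start of CDKN2B-AS1 in Mb. Bars span the lowest to the highest of the 6 libraries. MTAP lies at or under 0.140 FPKM, and KLHL9 reaches 19.7 FPKM.

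For the members with a call, replicates of a group differed by less than the called changes. The test weighs a change against this spread, so that tends to follow from the call and adds no support. On the log2 scale replicate 2 minus replicate 1 was -0.29, -0.12 and -0.32 for CDKN2C in DMSO, palbociclib and pimasertib, so CDKN2C was lower in replicate 2 each time. For CDKN2D the differences were -0.08, 0.36 and -0.10, for CDKN1B -0.04, 0.48 and -0.14, and for CDKN1A -0.02, 0.21 and -0.17. CDKN1A, CDKN1B and CDKN2D were thus higher in replicate 2 in palbociclib and lower in it in the other groups. For CDKN1C, at few counts, they were -0.53, -0.54 and 0.15.

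For each member the genes with the most similar profile over the 6 libraries were found by the root-mean-square difference of log2 CPM after removal of each gene's mean, among protein-coding genes with at least 100 mean counts. For CDKN2C these were BRIP1 (0.141), PIM1 (0.335) and LRRCC1 (0.345), where the median gene was at 0.993. BRIP1 had 23.9 and 15.1 CPM with DMSO, 6.45 and 5.32 with palbociclib and 28.0 and 21.8 with pimasertib, low in palbociclib alone like CDKN2C. For CDKN2D they were APLN (0.177), FIGNL1 (0.187) and MCM3 (0.208), with a median gene at 0.856. MCM3 had 166 and 141 CPM with DMSO, 68.8 and 83.5 with palbociclib and 53.2 and 47.9 with pimasertib. For CDKN1B they were PORCN (0.0574), ANKRD13B (0.0664) and ZNF775 (0.106), with a median gene at 0.570. For CDKN1A they were FECH (0.0569), NFYB (0.0653) and S100PBP (0.084), with a median gene at 0.493. For CDKN1C they were FBXL20 (0.0705), RBCK1 (0.0912) and APOL2 (0.0995), with a median gene at 0.524. The genes named were the closest of 9760 or 9761 compared for each member. That they lie below the median gene and share the member's pattern follows from this choice. Such likeness describes these 6 libraries only.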

How the data were processed

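RNA of HT-1080 cells was sequenced in 6 libraries, 2 each of DMSO, palbociclib and pimasertib. Tools listed in the submitters' processing notes are STAR 2.5, HTSeq 0.6.1, CASAVA and DESeq2, with GRCh37 and hg19 as builds. Strand settings are not stated in the labels. The authors deposited 1 table per drug with raw read counts per gene and FPKM of the drug and DMSO libraries. Per the file headers, the log2 fold changes in them, and the p-values with their adjusted form, are the authors' own comparison with DMSO. Gene lengths were used as the authors deposited them, and their deposited group means (a scaled signal) were not used. Tables of 23914 and 24931 genes were joined by gene ID, and a gene in 1 table only had no DMSO read and was counted 0 in the other drug. Each row of a table held at least 1 count. Counts were tested with edgeR 4.0.16 (R 4.3.3), using filterByExpr (minimum count 10, minimum total 15), TMM, and glmQLFit (robust) over all 6 libraries, without a replicate block, and glmQLFTest, two-sided. The SE is the absolute log2 fold change over the square root of F. The steps were tested on simulated data, with the same spread set for all genes and no shift shared by replicate numbers. That test does not show how the steps perform with the replicate differences of these libraries. Log2 CPM for profiles used a prior count of 2. Alternatives were DESeq2 1.42.0, limma-voom (limma 3.58.1), other scaling, filters and libraries, a replicate block and single libraries left out. Members and lists were chosen with earlier results of these data known. The members are always named. Of each list up to 4 genes past the threshold per direction and comparison could be named, by size of change, and CDK2, CDK4, CDK6, SKP2, MTAP and CDKN2B-AS1 whatever their value. PCNA, CCNA2, CDK1, CCND3 and FOXO1 in pimasertib, and ETS2 and CCND1 in palbociclib, were named after their values were seen. 1 regulator that is counted is not reported here by name.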

Additional observations from a re-analysis of the deposited data

How the results depend on the processing

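Of 192 values of the CDK inhibitor genes under alternatives, 174 kept their direction and side of the threshold, 10 no longer passed, 5 newly passed and 3 changed sign. CDKN2C in palbociclib and CDKN2D in pimasertib passed under every alternative run. The replicate numbers are not said to mark a shared culture, although replicate differences correlated across groups (0.397, 0.351 and 0.345). With the replicate block, 2953 of the 14839 tested genes passed in palbociclib, 6551 in pimasertib and 4702 between the drugs. Of the 5 CDK inhibitor genes, 2 passed in palbociclib, 3 in pimasertib and 3 between the drugs. CDKN2D in palbociclib (edgeR adjusted p = 0.00577) and CDKN1A (0.00334) and CDK4 in pimasertib (0.0022) then passed. In palbociclib 1097 genes passed with no filter on low counts, 834 with DESeq2 and 325 from the 4 libraries of the comparison, against 526. With no filter, where 26286 genes were tested, 2 of the 5 CDK inhibitor genes passed in palbociclib. With limma-voom 2 of the 5 passed there as well, beside 494 of 14839 genes. Between the drugs 2256 genes passed with no filter, against 1393. Without single libraries, counts ranged from 334 to 762 in palbociclib, 1055 to 4082 (main 3376) in pimasertib and 456 to 1941 between the drugs, and CDK inhibitor genes from 1 to 2 in pimasertib and 1 to 3 between the drugs. The stricter filter left no value for CDKN1C. Signs changed only for values that did not pass. Without single libraries, CDKN1B in palbociclib spanned -0.33 to 0.13, CDKN1C between the drugs -0.19 to 0.38, CDK2 between the drugs -0.22 to 0.15, CDK6 in palbociclib -0.093 to 0.50, in pimasertib -0.39 to 0.28 and between the drugs -0.60 to 0.072, and CDKN2B-AS1 -0.70 to 1.21, -0.34 to 1.24 and -0.52 to 0.99 in the 3 comparisons. CDK6 in pimasertib was 0.0064 with DESeq2 size factors, 0.026 with no filter, 0.031 with the stricter filter, 0.0032 with DESeq2 and 0.021 from 4 libraries, and CDK2 between the drugs was 0.0091 with the stricter filter. FOXO1 in pimasertib was 0.0066 with no filter, 0.019 with the stricter filter, 0.0083 from 4 libraries and -0.17 to 0.094 without single libraries. E2F1 between the drugs did not pass with limma-voom (0.0617). The cause of these differences was not tested. The 81 per-length values under alternatives moved by less than the SD. Where 1 of the 2 libraries of a group was left out, this had to hold, since that shift is always smaller than their SD. Only the values from scaled counts per kilobase could have moved further. CDKN1C rested on 10 to 24 counts a library.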
